A study of Gallus gallus with 6 samples.

Results

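The genes described here lie on chromosome Z of the chicken, the large sex chromosome of which a hen carries 1 copy beside the small W chromosome. They were chosen by position alone: every gene of the deposited table on the same sequence as gene18243, with gene18243 itself and gene19266 left out. This gave 882 genes of 17992, among them 36 transcripts that the authors' assembly added without an annotation. The reference genes lay on chromosomes 1, 2, 3 and 5 (2187, 1421, 1242 and 986 genes, 5836 together), of which a hen carries a pair. The name of the chromosome was checked with the genes that have a chicken gene entry in the paper's supplement. All 21 entries that could be matched on this sequence are on chromosome Z in a reference table of chicken genes. Of the genes named by a protein description, 1 (gene18365) has a name that this reference places on chromosome 2, and that name was set aside.

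Small yellow follicles are the pool from which the next large follicle is recruited, and each holds an oocyte, granulosa cells and a theca. RNA of 6 such follicles was sequenced, with 1 library each and 2 follicles from each of 3 Jining Bairi hens, labelled wild type and aged 30 weeks. By the paper's pairing, T4 and T1 came from hen 1, T5 and T2 from hen 2, and T6 and T3 from hen 3. The submitters' labels give the lower level of *FSHR*, the receptor of follicle-stimulating hormone, to T4, T5 and T6, and call T1, T2 and T3 higher. The deposited values go the other way, with 46.4, 18.9 and 27.8 FPKM of *FSHR* in T4, T5 and T6, against 11.9, 13.1 and 13.9 FPKM in T1, T2 and T3. The follicles are therefore called by their numbers, and ratios within hens are written T4/T1, T5/T2 and T6/T3. FPKM counts fragments by transcript length in kilobases and by the size of the library.

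In birds the male has a pair of Z chromosomes and the female has a Z and a W. Birds have no known mechanism that silences or raises the whole chromosome as mammals silence an X, and the balance between the sexes is set gene by gene and is partial. The Z carries *DMRT1*, whose dose directs the development of the testis in chickens. The follicles all came from hens, so the comparison is between chromosomes within a hen's follicle and not between the sexes.

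The follicles were sequenced to a similar depth, with 12554585 to 13933327 fragments on genes as estimated from the steps between low values, and 11895 to 12497 genes reached 1 FPKM in a follicle. The 4 granulosa markers (*FSHR*, *ZP3*, *INHA* and *NR5A1*) summed to 12754, 5588 and 5181 FPKM in T4, T5 and T6, against 2097, 2675 and 2087 FPKM in T1, T2 and T3. The 4 markers of theca, fibroblasts and matrix (*COL3A1*, *LUM*, *PRRX1* and *COL6A3*) summed to 404, 1732 and 2485 FPKM in T4, T5 and T6, against 2170, 1619 and 3601 FPKM in T1, T2 and T3. *ZP3* made up most of the granulosa sum in every follicle (10951 FPKM in T4), and *COL3A1* most of the other (1636 FPKM in T5). The log2 ratio of each granulosa marker was above 0 in every hen. Each marker of the other list was below 0 in T4/T1. In T5/T2 *COL3A1* was at 0.11, and *LUM*, *PRRX1* and *COL6A3* at -0.18, -0.29 and -0.12. In T6/T3 *PRRX1* was at 0.21, and *COL3A1*, *LUM* and *COL6A3* at -0.55, -0.56 and -0.35. No marker of either list was at 0 in any follicle. T4 stood apart from the rest: over all genes its Spearman correlations with the other follicles were 0.932 to 0.963, and those among the others 0.965 to 0.981. Fewer cells of a type and less RNA per cell cannot be told apart in a whole follicle.

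Expressed genes of chromosome Z had a lower median level than those of chromosomes 1, 2, 3 and 5 in every follicle. Among genes at 1 FPKM or more, the median on chromosome Z was 9.74, 9.50 and 9.48 FPKM in T4, T5 and T6, and 8.80, 8.11 and 8.61 FPKM in T1, T2 and T3. On chromosomes 1, 2, 3 and 5 together it was 12.97, 11.9 and 12.9 FPKM in T4, T5 and T6, and 12.3, 11.6 and 12.4 FPKM in T1, T2 and T3. The median on Z was thus 0.732 ± 0.018 of the median on these chromosomes (SD, n = 3 hens), or -0.45 ± 0.03 on the log2 scale. The lowest ratio was 0.695, in T3, and the highest 0.800, in T5. Against single chromosomes the ratio lay between 0.742 and 0.865 for chromosomes 1 and 2, and between 0.586 and 0.663 for chromosome 5. Genes are not replicates, so no test across genes was made.

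Z was the lower at each limit tried (0.1, 1 and 5 FPKM, and all genes above 0), although the size of the difference varied. For the 487 Z genes and 3639 genes of the other 4 chromosomes that reached 1 FPKM in all 6 follicles, the log2 ratio of the medians was -0.42 ± 0.05 (SD, n = 3 hens). At a limit of 5 FPKM it was -0.23. Of 28 sequences with at least 100 genes, Z had the lowest level, and the other 27 lay between 11.5 and 30.8 FPKM. Its value was 9.14 FPKM, and each value is the median of the 6 follicle medians. The upper end differed as well: 42, 35 and 39 Z genes were at 100 FPKM or more in T4, T5 and T6, which is 4.76%, 3.97% and 4.42%, and 33, 35 and 33 in T1, T2 and T3. On chromosomes 1, 2, 3 and 5 the share at 100 FPKM was 5.05% to 5.88%.

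In each hen the Z level, relative to the other 4 chromosomes, was higher in the follicle with more *FSHR* mRNA by FPKM. The means of the paper's qRT-PCR of *FSHR* had the same order. There the difference was large between T4 and T1, but small between T5 and T2. Between T6 and T3 it was smaller than the reported error, so the order in hen 3 is not settled by qRT-PCR. The log2 ratio of the medians was -0.41, -0.32 and -0.44 in T4, T5 and T6, and -0.49, -0.51 and -0.53 in T1, T2 and T3, so the groups did not overlap. The differences within hens were 0.08, 0.19 and 0.08. For the genes expressed in all 6 follicles they were 0.07, 0.05 and 0.14, and the groups overlapped there. A value over all members has no test here, and with 3 hens an exact two-sided test of signs could not go below p = 0.25. The granulosa markers were higher in the same follicles, and their part in this difference was not tested.

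**Figure D1:**
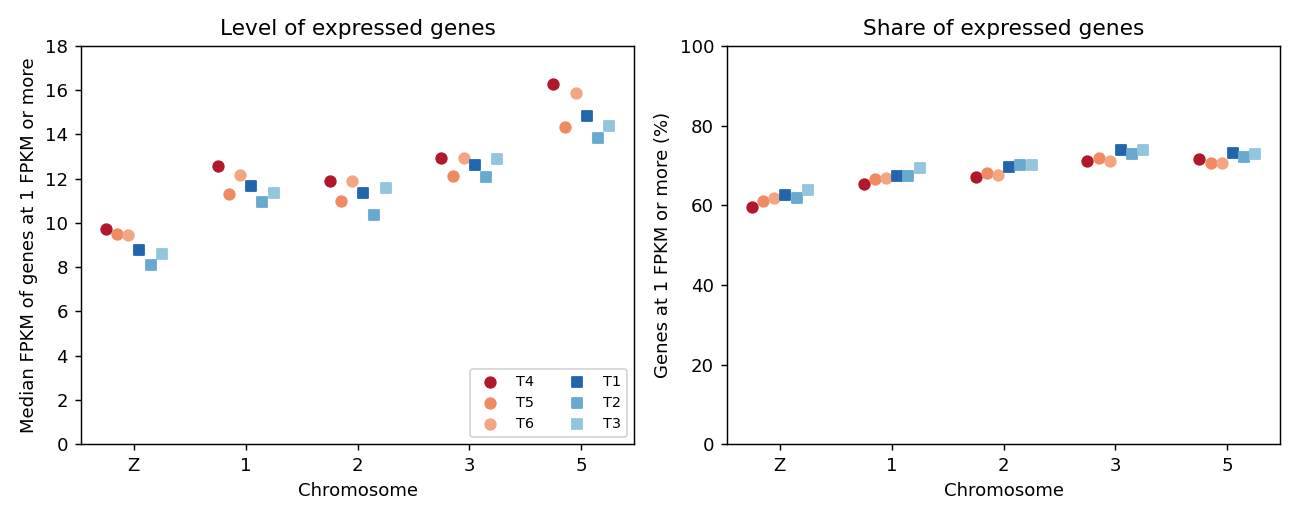
Level and share of expressed genes by chromosome. Each point is 1 follicle, with circles for T4, T5 and T6 and squares for T1, T2 and T3. The left panel gives the median FPKM of genes at 1 FPKM or more, and the right panel the percentage of genes at 1 FPKM or more. Z medians lie between 8.11 and 9.74 FPKM, below those of chromosomes 1, 2, 3 and 5 in every follicle.

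A smaller share of the Z genes was expressed than of the genes on chromosomes 1, 2, 3 and 5. At 1 FPKM or more were 59.6%, 61.1% and 61.9% of the 882 genes in T4, T5 and T6, and 62.5%, 61.8% and 63.8% in T1, T2 and T3. The exact (Clopper-Pearson) 95% interval for T4 was 56.3% to 62.9%, which covers counting error only. On chromosomes 1, 2, 3 and 5 together the share was 68.1%, 68.7% and 68.5% in T4, T5 and T6, and 70.2%, 70.0% and 71.0% in T1, T2 and T3. The difference was -7.64 ± 0.65 percentage points (SD, n = 3 hens). Among the 28 sequences with at least 100 genes Z did not have the lowest share. Its median over the follicles was 61.8%, and another sequence had 54.6%. Over the 6 follicles, 487 Z genes were expressed in all, 112 in some and 283 in none. Of the 283, 146 were listed at 0 throughout, which is 16.6% of all Z genes, against 5.67% on chromosomes 1, 2, 3 and 5.

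The unexpressed genes were not spread evenly along the chromosome. In windows of 5 Mb of the deposited start positions, the mean share of expressed genes was 53.5% to 87.4% in 15 of the 17 windows, and 37.0% and 37.1% in windows 13 and 14. These windows, from 60 to 70 Mb, hold 77 and 70 genes, of which 34 and 27 were listed at 0 in all 6 follicles. Their transcripts had a median length of 1320 and 2058 bases, and the median over all Z genes was 2441 bases. Without these windows, which were singled out after their values were seen, the difference in share from chromosomes 1, 2, 3 and 5 was -2.70 ± 0.83 points. The difference in level did not shrink without them, with a log2 ratio of -0.48. The windows with the highest median levels were 14, 15 and 17 (13.3, 13.2 and 17.0 FPKM averaged over follicles), and windows 8 and 9 had the lowest (5.45 and 5.70 FPKM). Expressed Z transcripts had a median length of 3594 bases, against 3410 bases on chromosomes 1, 2, 3 and 5. Genes in no follicle were shorter, with a median of 1203 bases. Of the Z genes, 46.6% were on the plus strand.

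**Figure D2:**
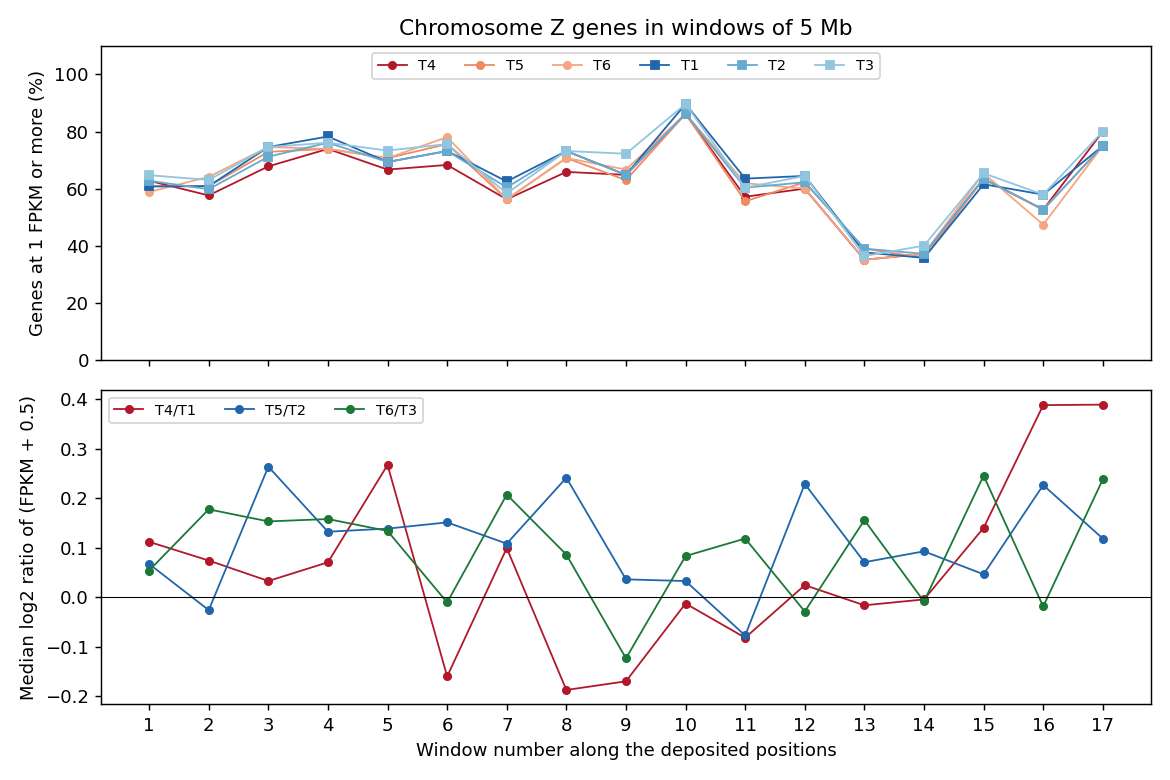
Chromosome Z in windows of 5 Mb, numbered along the deposited positions. The upper panel gives the percentage of genes at 1 FPKM or more in each follicle, and the lower panel the median log2 ratio of FPKM + 0.5 within each hen. Windows 13 and 14 hold 37.0% and 37.1% expressed genes, and the medians of the ratios are above 0 in 10, 15 and 12 of 17 windows in hens 1, 2 and 3.

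The most abundant Z transcripts were mostly short, and the FPKM of such transcripts is less certain than that of long ones. The 10 genes with the highest mean FPKM took 38.1% to 55.2% of the summed FPKM of the chromosome in a follicle. The first of them was gene19162 (318 bases; 66344009 to 66349061, minus strand), with 2063, 3402 and 4510 FPKM in T4, T5 and T6, against 2396, 2389 and 2661 FPKM in T1, T2 and T3. It overlapped between the groups and was lower in T4 than in T1. For 8 of the 10 no name could be used here. The 2 with a name were *RLN3*, a hormone of the relaxin family, and *HEMGN*, a nuclear protein of blood cell precursors. *HEMGN* had 1480, 563 and 554 FPKM in T4, T5 and T6, against 481, 604 and 221 FPKM in T1, T2 and T3. It was thus higher in T4 and T6 than in T1 and T3, with a log2 ratio of -0.10 in hen 2.

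Within hens 1 and 2, a larger share of the Z genes than of the genes on chromosomes 1, 2, 3 and 5 was at least 2-fold higher in T4 and T5. A gene was counted if either follicle of the pair reached 1 FPKM, and ratios were formed from FPKM + 0.5, which understates the differences of low genes. With 1 follicle against 1 there is no replicate check. In hen 1, 61 of 564 Z genes were higher in T4 (10.8%), against 5.38% of all 12688 genes of the table. On chromosomes 1, 2, 3 and 5 the share was 4.50% to 6.06%. At least 2-fold lower in T4 were 65 Z genes (11.5%), against 13.3% of all genes and 10.6% to 12.7% on the other 4 chromosomes. The Z share of lower genes thus lay within the range of these chromosomes, while that of higher genes lay above it.

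In hen 2, 16 of 558 Z genes were at least 2-fold higher in T5 (2.87%), against 1.46% of all genes, and 11 were lower (1.97%), against 3.31%. The other 4 chromosomes had 0.931% to 1.30% higher and 2.38% to 3.82% lower. In hen 3, 20 of 573 Z genes were higher in T6 (3.49%), against 2.61% of all genes, and 18 were lower (3.14%), against 4.41%. There the other 4 chromosomes had 1.51% to 3.03% higher and 3.03% to 5.42% lower. The excess of higher Z genes was thus small in hen 3. Among the 28 sequences with at least 100 genes, a comparison added after the data were seen, Z was first in the share of higher genes in hen 1 (the next had 7.61%), second in hen 2 (another had 3.11%) and behind 4 others in hen 3 (the highest had 4.44%).

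**Figure D3:**
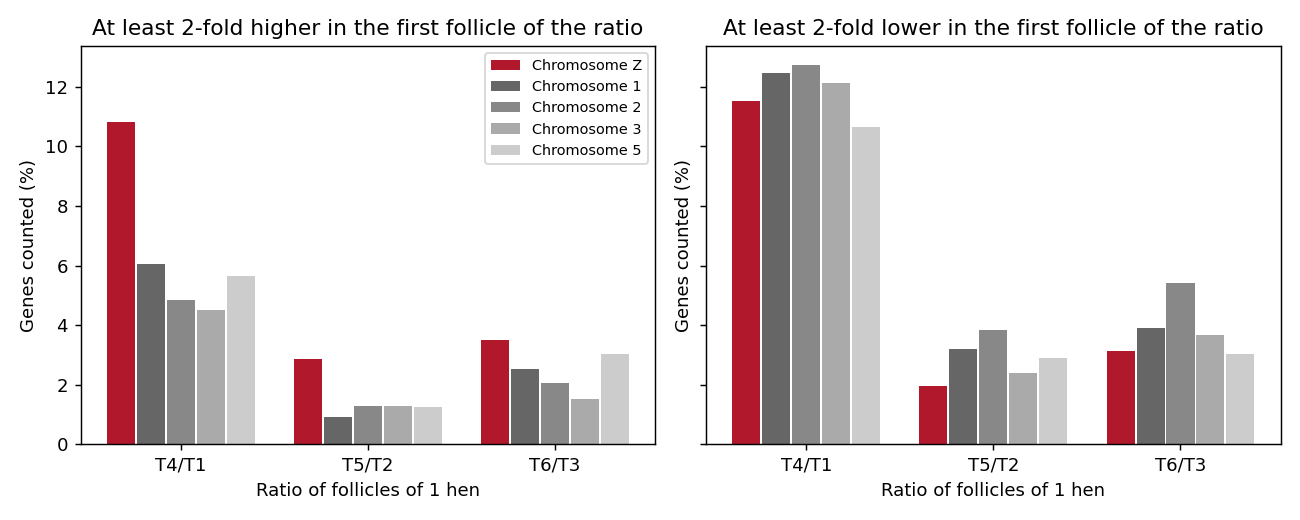
Percentage of counted genes at least 2-fold higher (left) and lower (right) in T4 than in T1, in T5 than in T2 and in T6 than in T3, for chromosome Z and chromosomes 1, 2, 3 and 5. On the left, Z stands at 10.8%, 2.87% and 3.49%, above the other 4 chromosomes in each hen. On the right, it lies within their range in hens 1 and 3 and below it in hen 2.

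The middle of the Z ratios lay near 0, and their spread was wide in hen 1. The median log2 ratio of the counted Z genes was 0.03 in hen 1, 0.09 in hen 2 and 0.12 in hen 3. For chromosomes 1, 2, 3 and 5 it was 0.03, 0.01 and 0.03. In hens 2 and 3, Z had the highest median of the 28 sequences, and in hen 1 it was behind 9 others. In hen 1 the quartiles were -0.50 and 0.48 on Z, and -0.38 and 0.34 on the other 4 chromosomes, so that both quartiles lay further out. The 90th percentile was also further out, at 1.05 against 0.69, but the 10th was not, at -1.12 against -1.14. Fewer of the genes expressed in all 6 follicles stayed within a 2-fold range on Z. Of 487, 53.6% had a highest value under 2 times the lowest, against 61.6% on chromosomes 1, 2, 3 and 5. A range of at least 4 times was near that elsewhere, with 11.9% on Z, 11.8% on chromosome 1 and 11.4% of all genes off Z. Levels were not matched for these shares.

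**Figure D4:**
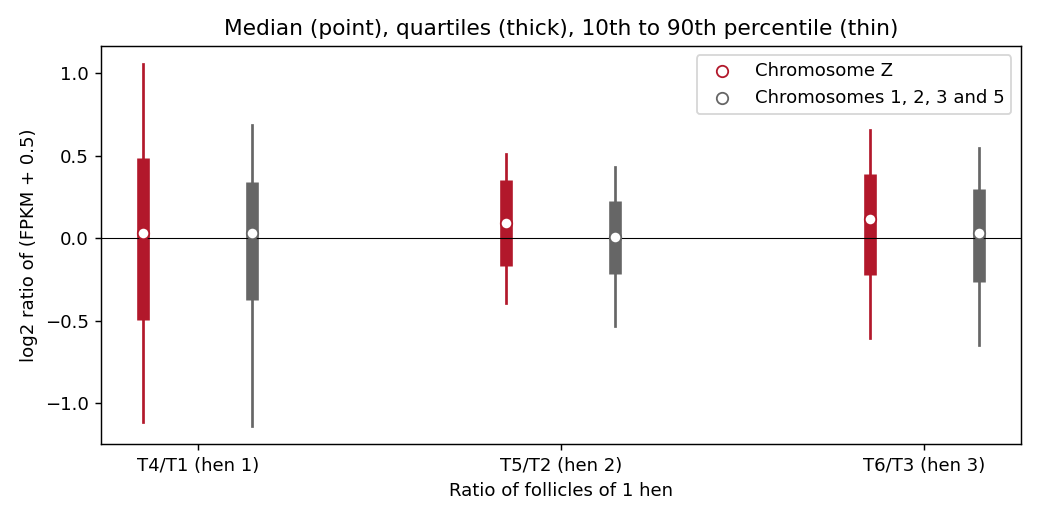
Log2 ratios of FPKM + 0.5 within hens for counted genes of chromosome Z and of chromosomes 1, 2, 3 and 5. The point is the median, the thick bar the quartiles and the thin line the 10th to 90th percentile. The Z median is 0.03, 0.09 and 0.12 in hens 1, 2 and 3, and in hen 1 the Z quartiles are -0.50 and 0.48.

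Since Z genes had lower levels, the counts were also made at similar levels. Among genes with a mean of 20 FPKM or more, 22 of 156 Z genes were at least 2-fold higher in T4 (14.1%), against 6.20% of 1435 genes on chromosomes 1, 2, 3 and 5. In the same range 3.85% were higher in T5, against 0.418%, and 6.41% in T6, against 2.86%. Those Z shares rest on 6 and 10 genes. Between 5 and 20 FPKM the Z share was 8.85% in hen 1, against 3.61%, and 1.77% and 1.78% in hens 2 and 3, against 1.18% and 1.53%. Below 5 FPKM it was 10.4% in hen 1, against 6.95%, and 3.41% and 3.13% in hens 2 and 3, against 2.10% and 2.70%, with 6 Z genes in each of these hens. The Z share of higher genes was the larger in all 3 ranges in hen 1, and above 20 FPKM in hens 2 and 3. Below 20 FPKM in hens 2 and 3 it was only slightly larger, on 4 or 6 Z genes in each range. The gap was largest above 20 FPKM in each hen. Shares over all genes of the table were not counted by level. Above 20 FPKM the Z share of genes at least 2-fold lower was the larger too. It was 8.33%, 1.92% and 1.92% in T4, T5 and T6, against 8.01%, 0.557% and 1.04%, on 13, 3 and 3 Z genes. In the ranges below 20 FPKM the Z share of lower genes was the smaller in each hen.

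Of 532 Z genes counted in all 3 hens, 126 had a ratio above 0 in every hen (23.7%), against 17.1% on chromosomes 1, 2, 3 and 5 and 15.2% over all genes. Below 0 in every hen were 52 (9.77%), against 12.3% and 14.1%. At the 2-fold limit, 3 of the 532 Z genes were higher in all 3 hens (0.564%), against 34 of 11890 genes of the table (0.286%): *RLN3*, *FAM189A2* and *ZSWIM6*. At least 2-fold lower in all 3 were 0 Z genes, against 6 genes of the table (0.0505%), a share at which fewer than 1 would fall on Z. Higher genes were found along most of the chromosome: 17, 12 and 15 of the 17 windows held a gene past the 2-fold limit upward in hens 1, 2 and 3. In hen 1 every window also held a gene past that limit downward. In hens 2 and 3 fewer windows held a lower gene than a higher one. Windows of other chromosomes were not counted, so this does not set Z apart.

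Across the 3 hens, no Z gene passed the test. limma was fitted with the hen as a block to the 12381 genes that reached 1 FPKM in 3 or more follicles, of which 551 were on Z. At an adjusted p under 0.05 it called 0 of 551 Z genes and 0 of all genes (0%), and the smallest adjusted p on Z was 0.774. At an unadjusted p under 0.05, 40 Z genes were higher in T4, T5 and T6 (7.26%), against 3.57% of all genes, and 9 were lower (1.63%), against 2.15%. Without hen 1, whose pair differed most, limma called 21 Z genes higher in T5 and T6 (3.81%), against 1.66% of all genes, and 9 lower (1.63%), against 2.11%. That count rests on 2 hens and on the spread borrowed from other genes: in place of 30 Z genes, 9 (1.63%) were called with eBayes run without robust, against 1.01% of all genes, and 1 (*FAM189A2*, 0.181%) without trend as well, against 0.17%. In the last setting the Z share was about that of all genes.

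Names could be given to 60 of the 882 Z genes. They came from a supplementary list of genes that the study called between T4 and T1, of which all higher but only part of the lower genes were used here. So 53 of the 60 were higher and 7 lower in T4, and the direction and size of their ratios in hen 1, singly or by list, follow from that choice. Hens 2 and 3 had no part in the choice of names. Genes of other chromosomes called between T4 and T1 were not compared, so the counts in these hens do not set Z apart. Of the 53, 40 were above 0 in T5/T2 and 41 in T6/T3, which is to be read against 47.5% and 51.0% of all counted genes of the table above 0. Their median log2 ratios were 0.39 and 0.40. In each of these hens 7 of the 53 were at least 2-fold higher, where all genes had 1.46% and 2.61%, and 1 in hen 2 and 2 in hen 3 were at least 2-fold lower. Of the 7 lower in T4, 7 were above 0 in T5/T2 and 3 in T6/T3. The lists of such genes are described by counts, and for none of them is a test given. These counts take every matched gene, also those under 1 FPKM in both follicles. Where a named gene is said not to overlap between the groups, the share of all genes without overlap was not counted. The choice of names through T4/T1 makes such a lack of overlap more likely.

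**Figure D5:**
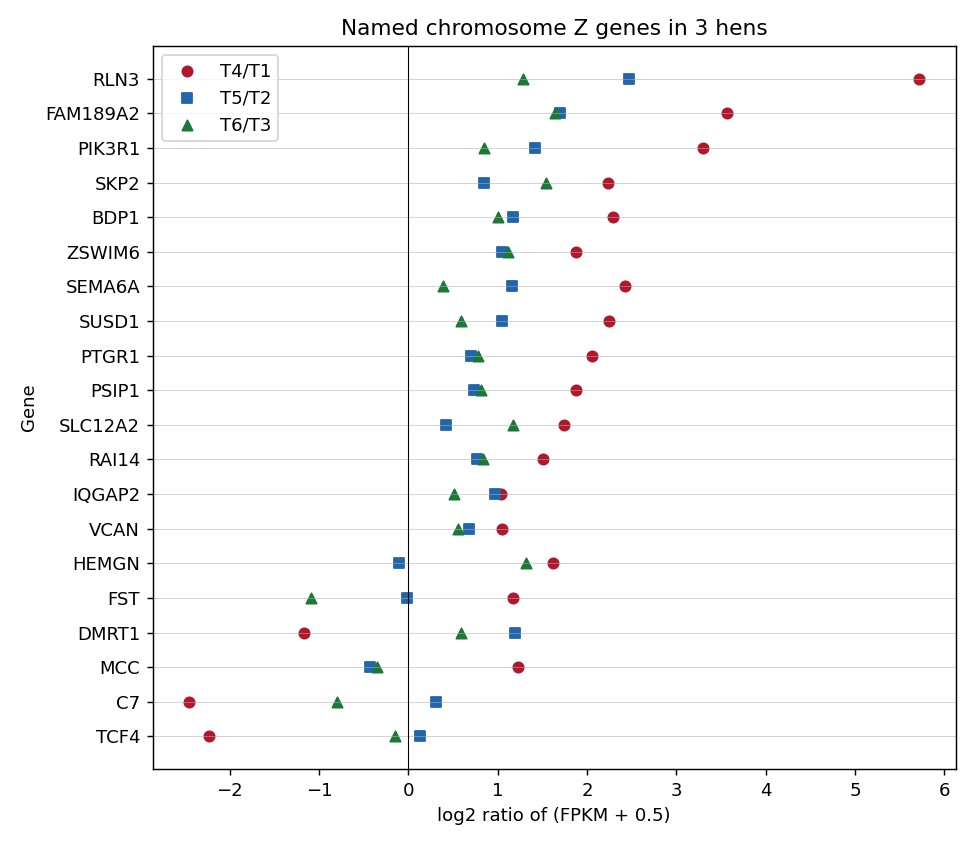
Log2 ratio of FPKM + 0.5 within hens for 20 named genes of chromosome Z, each with 1 point per hen (circle T4/T1, square T5/T2, triangle T6/T3). *RLN3* lies at 5.72, 2.47 and 1.29 in hens 1, 2 and 3, and *FST* and *MCC* lie above 0 in hen 1 and below 0 in hens 2 and 3.

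Hormone and growth factor signaling was represented by a part of its list. Of 13 genes on this list, 6 had a name on the sequence (*FST*, *RLN3*, *NRG1*, *NTRK2*, *SEMA6A* and *PIK3R1*). Of these, 3 passed the 2-fold limit upward in hen 2 and 2 in hen 3, with 1 lower in hen 3. One of the 2 in hen 3 was *NRG1*, with 1.41 FPKM in T6 and 0.208 FPKM in T3. Of all genes of the table, 1.46% were at least 2-fold higher in hen 2 and 2.61% in hen 3, with 3.31% and 4.41% lower. The list counts that follow are to be read against the same shares. *RLN3* (gene18650; 27484020 to 27487035, minus strand) had 2162, 1154 and 1351 FPKM in T4, T5 and T6, against 40.6, 208 and 553 FPKM in T1, T2 and T3. The groups did not overlap, and T1, T2 and T3 differed more in fold from each other than T4, T5 and T6 did. The ratios on the log2 scale were 5.72, 2.47 and 1.29, with a mean of 3.16 (SE 0.81 from limma, n = 3 hens, adjusted p = 0.774). Hens 2 and 3 alone gave a mean of 1.88 (SE 0.25 from limma) and a limma adjusted p of 1.06e-10. That adjusted p was 0.0064 without robust and 0.066 without trend as well. With 2 hens, whose ratios were 2.47 and 1.29, these p-values rest largely on spread borrowed from other genes.

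*PIK3R1*, the regulatory subunit of phosphoinositide 3-kinase, had 57.3, 12.8 and 22.1 FPKM in T4, T5 and T6, against 5.37, 4.50 and 12.1 FPKM in T1, T2 and T3. The lowest value of the first 3 follicles was just above the highest of the others. *SEMA6A*, a membrane-bound semaphorin, had log2 ratios of 2.43, 1.16 and 0.39. *NTRK2*, the receptor of brain-derived neurotrophic factor, had 8.33, 1.45 and 2.71 FPKM in T4, T5 and T6, against 1.16, 0.900 and 1.27 FPKM in T1, T2 and T3. *NRG1*, a ligand of ERBB receptors, stayed below 3 FPKM in every follicle.

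*FST*, the follistatin that binds activin, differed between the hens. It had 243, 124 and 108 FPKM in T4, T5 and T6, against 108, 125 and 230 FPKM in T1, T2 and T3. The log2 ratios were 1.17, -0.02 and -1.09, so the pairs of hens 1 and 3 went opposite ways. The mean was 0.02 (SE 0.42 from limma, n = 3 hens, adjusted p = 0.992), and without hen 1 it was -0.55.

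Among transcription factors, *DMRT1* and its neighbour *DMRT2* could be followed. *DMRT1* (gene18625; 25808236 to 25864281, plus strand) had 8.35, 5.20 and 12.5 FPKM in T4, T5 and T6, against 19.4, 1.99 and 8.15 FPKM in T1, T2 and T3. Its level was thus highest in T1 and lowest in T2, and the groups overlapped. The ratios on the log2 scale were -1.17, 1.19 and 0.59, with a mean of 0.20 (SE 0.46 from limma, n = 3 hens, adjusted p = 0.909), and the sign turned without hen 2 (-0.29). An unannotated transcript on the same strand overlaps it, so that their fragments may be divided between both rows. *DMRT2* had 1.04, 0.421 and 0.472 FPKM in T4, T5 and T6, against 0.0965, 0.0303 and 0.1002 FPKM in T1, T2 and T3. It was the higher of the pair in T4, T5 and T6, at levels under the 1 FPKM limit in 5 of 6 follicles.

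*TCF4*, a factor that binds E-box sites, had 3.80 FPKM in T4 and 13.5 to 21.5 FPKM elsewhere. *RFX3*, a factor of genes for cilia, had log2 ratios of 1.48, 0.30 and -0.54. *RORB*, an orphan nuclear receptor, had log2 ratios of 1.39, 0.28 and -0.96. Of the 7 genes of this list 5 were matched, 1 of them (*DMRT1*) at least 2-fold higher in T5 and 0 either way in T6.

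Of 10 genes of chromatin and transcription on the list 8 were matched, with 2 past the 2-fold limit upward in hen 2 and 1 in hen 3, and *ZBTB5*, listed at 0 in T5 and under 5 FPKM in every follicle, was at least 2-fold lower in T5 and T6. *PSIP1*, which tethers factors to active chromatin, had 601, 265 and 245 FPKM in T4, T5 and T6, against 163, 160 and 140 FPKM in T1, T2 and T3. *BDP1*, a subunit of the RNA polymerase III factor TFIIIB, had 52.6, 19.4 and 23.3 FPKM in T4, T5 and T6, against 10.4, 8.36 and 11.4 FPKM in T1, T2 and T3. Neither gene overlapped between the groups. Their mean log2 ratios were 1.14 (SE 0.28) and 1.48 (SE 0.29) over 3 hens, both with an adjusted p of 0.774 in limma. *ZSWIM6*, a zinc finger protein, had 9.40, 4.10 and 5.63 FPKM in T4, T5 and T6, against 2.20, 1.72 and 2.33 FPKM in T1, T2 and T3. Its log2 ratios of 1.87, 1.05 and 1.12 all passed the 2-fold limit. *MLLT3* had log2 ratios of 1.08, 0.01 and 0.59, *ELL2* of 1.24, 0.25 and 0.39, and *MIER3* of 1.40, 0.52 and -0.26 in hens 1, 2 and 3.

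*FAM189A2*, a membrane protein gene, had the smallest limma p of the Z genes. It had 383, 108 and 146 FPKM in T4, T5 and T6, against 31.9, 33.0 and 46.4 FPKM in T1, T2 and T3. The groups did not overlap, and T1, T2 and T3 lay close together. The gene was singled out by these same values, so the lack of overlap follows in part from the choice. The ratios on the log2 scale were 3.57, 1.69 and 1.64, with a mean of 2.30 (SE 0.41 from limma, n = 3 hens, unadjusted p = 0.00165, adjusted p = 0.774). Hens 2 and 3 alone gave a mean of 1.67 and a limma adjusted p of 4.87e-10, or 0.0476 without trend or robust. As for *RLN3*, these p-values come from 2 hens and rest largely on spread borrowed from other genes.

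Of the genes of ubiquitin and the cell cycle, 5 of 7 were matched, and the 2-fold limit was passed upward by 0 in hen 2 and 1 in hen 3. That 1 was *SKP2*, which marks inhibitors of cyclin-dependent kinases for degradation. *SKP2* (gene18396; 10837898 to 10849055, plus strand) had 319, 129 and 150 FPKM in T4, T5 and T6, against 67.5, 71.5 and 51.1 FPKM in T1, T2 and T3. The groups did not overlap, and the log2 ratios were 2.23, 0.85 and 1.54. The mean was 1.54 (SE 0.28 from limma, n = 3 hens, adjusted p = 0.774). *SKP2* overlaps a gene on the other strand, and the sources used here do not say whether the authors counted by strand, so the fragments of such partners cannot be told apart. The same limit holds for the values of *PIK3R1*, *RAI14*, *IQGAP2*, *PTGR1*, *NADK2*, *MCC* and *GBA2*. Of the 882 Z genes, 147 overlap a gene on the other strand and 10 one on the same strand.

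Of 10 genes of the matrix and of adhesion, 5 were matched, with 1 at least 2-fold higher in T5 and 0 in T6. *VCAN*, the proteoglycan versican, had 71.1, 48.1 and 45.7 FPKM in T4, T5 and T6, against 34.3, 30.0 and 31.1 FPKM in T1, T2 and T3, without overlap. *SUSD1* had 39.4, 8.83 and 18.9 FPKM in T4, T5 and T6, against 7.91, 4.03 and 12.4 FPKM in T1, T2 and T3. *CCBE1*, which is needed for growth of lymph vessels, had log2 ratios of 1.40, 0.43 and 0.32. *ADAMTS12*, a matrix protease, was at 0.450 FPKM in T4 and between 0.869 and 3.04 FPKM elsewhere. The summed theca and matrix markers were also lowest in T4, at 404 FPKM, and their part in its value was not tested.

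Of the genes of the cytoskeleton and of GTPase signaling, 9 of 11 were matched, with 0 at least 2-fold apart either way in T5 and T6. *RAI14*, an actin-bound protein, had 33.3, 14.1 and 20.6 FPKM in T4, T5 and T6, against 11.4, 8.11 and 11.3 FPKM in T1, T2 and T3. *IQGAP2*, a scaffold protein of the actin cytoskeleton, had 28.5, 16.8 and 25.6 FPKM in T4, T5 and T6, against 13.6, 8.31 and 17.9 FPKM in T1, T2 and T3. Each was higher in every pair, but *IQGAP2* of T5 was below that of T3. *MCC* was higher in T4 (log2 ratio 1.22) and lower in T5 and T6 (-0.43 and -0.35).

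Of 11 genes of steroids, lipids and yolk 4 were matched, with 0 at least 2-fold apart in hens 2 and 3. *PTGR1*, a reductase of prostaglandins, had 110.4, 48.8 and 66.97 FPKM in T4, T5 and T6, against 26.2, 29.7 and 38.9 FPKM in T1, T2 and T3. *LIPG*, the endothelial lipase, had 111, 46.3 and 36.0 FPKM in T4, T5 and T6, against 45.6, 56.1 and 22.5 FPKM in T1, T2 and T3. *PTGR1* did not overlap between the groups, while *LIPG* did. *HSD17B3*, which makes testosterone from androstenedione, stayed below 3 FPKM in every follicle, and *GBA2*, a glucosylceramidase, had log2 ratios of 1.04, -0.13 and 0.30.

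Of the genes of metabolism and transport, 11 of 13 were matched, with 0 past the 2-fold limit upward in hen 2 and 1 in hen 3. *SLC12A2*, a cotransporter of sodium, potassium and chloride, had 78.0, 14.6 and 36.7 FPKM in T4, T5 and T6, against 22.9, 10.8 and 15.995 FPKM in T1, T2 and T3. It was higher in every pair, but its level in T5 was below that in T1 and T3. *NADK2*, the mitochondrial NAD kinase, had log2 ratios of 1.86, 0.55 and 0.17.

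The immune and pigment list gave 3 of 5 genes, with *HEMGN* at least 2-fold higher in T4 and T6, and *C7* and *MLANA* lower in T4. *C7*, a complement component, had 2.24, 20.6 and 10.4 FPKM in T4, T5 and T6, against 14.5, 16.6 and 18.5 FPKM in T1, T2 and T3. *MLANA*, a melanosome protein, had 1.29, 16.3 and 8.87 FPKM in T4, T5 and T6, against 10.4, 9.62 and 5.42 FPKM in T1, T2 and T3. Both were lowest in T4. The macrophage marker *MPEG1* and the Schwann cell marker *SOX10* were lowest there as well, at 0.512 and 0.366 FPKM, and so were the endothelial markers *CDH5* and *APLNR*. The muscle marker *MYL2* went the other way, with 50.0 FPKM in T4 and 5.78 to 20.5 FPKM elsewhere. The part of other cell types in the values of *C7* and *MLANA* was not tested. Over all lists, 56 of 87 genes were matched, 7 of them at least 2-fold higher and 1 lower in T5, and 6 higher and 2 lower in T6. Of all genes of the table, 1.46% and 2.61% were higher in T5 and T6, and 3.31% and 4.41% lower. The median log2 ratios of these 56 were 0.38 and 0.39 in hens 2 and 3, and those of all counted genes of the table were -0.02 and 0.01. The 56 have their names through calls in T4/T1, and all genes of the table were not chosen so. Genes of other chromosomes chosen alike were not compared, so these medians do not set Z or the lists apart.

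The Z genes that were lower in all 3 hens with the smallest limma p have no name here. Of them gene19152 (66076703 to 66103974, minus strand) had 2.49, 2.83 and 4.20 FPKM in T4, T5 and T6, against 5.34, 4.83 and 9.91 FPKM in T1, T2 and T3. For gene19199 (68021639 to 68022520, minus strand) the values were 13.3, 13.1 and 12.5 FPKM in T4, T5 and T6, and 21.9, 21.8 and 16.2 FPKM in T1, T2 and T3. Neither overlapped between the groups, and both lie in window 14. They were chosen by direction and p in these same values, so the lack of overlap follows in part from the choice. Their mean log2 ratios were -0.93 (SE 0.23) and -0.59 (SE 0.18) over 3 hens, with an adjusted p of 0.774 each in limma. Start and end positions are those of the deposited table. The paper names Gallus_gallus-5.0 and the submitters' processing notes name mm8, a mouse build. All matched entries on the 5 sequences used here lie on the chicken chromosomes of those names, so the positions are those of a chicken genome. Which version of it was used is not settled.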

How the data were processed

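RNA of 6 single follicles was sequenced by the authors, with 1 library each. The authors deposited FPKM values and a normalized count per gene (a signal: estimated fragments divided by a library factor), with transcript lengths. Bowtie 0.12.2 and Cufflinks stand in the submitters' processing notes. Of low normalized counts, 90.7% to 91.6% per follicle were whole multiples of a step within 0.02, so no count model was used. The table has 17993 lines, of which 1 repeats the header, and 1 further column of values was not used. The 2 follicles of a hen were paired as in the paper, and the hen was a block. The correlation between the 2 follicles of a hen, after the group means were taken out, was 0.43, 0.18 and 0.53. For follicles of different hens, 1 from each group, it was -0.46 (T4 with T3) to 0.18 (T4 with T2). Taking out the group means forces part of this contrast, so it does not measure how much the pairing matters. In hen 2 the correlation was about that of T4 with T2. Medians, shares and ratios were computed in Python 3.11.15 (numpy 2.4.6, pandas 2.3.3, scipy 1.17.1, matplotlib 3.10.9), with 0.5 FPKM added to ratios. limma 3.58.1 in R 4.3.3 (lmFit, eBayes with trend and robust) was run on log2(FPKM + 0.5), with Benjamini-Hochberg adjustment over all genes. In this fit, a p-value rests on the spread of the ratios within hens over 3 hens, and on spread borrowed from other genes. Alternatives were other pseudocounts, filters, scalings and limits, no block, each hen left out, and other settings of eBayes.

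Members and lists were chosen with earlier results of these data known. Named were the 10 genes of highest mean FPKM, the 6 named genes per hen and direction with the largest ratio at 5 FPKM or more, the 6 genes of smallest limma p in each direction that went 1 way in all hens, and named list members. Of these, the text gives a choice, and of the genes without a name only some. A result that is withheld is not reported here. Of 61 names, 1 was set aside because the reference table gives another chromosome, and 40 of the 60 used rest on a protein description.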

Additional observations from a re-analysis of the deposited data

How the results depend on the processing

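Z kept the lower level under all 15 alternatives. The log2 ratio of the medians was -0.23 at 5 FPKM, -0.42 for genes at 1 FPKM in all 6 follicles, -0.38 for normalized counts per kilobase, -0.49 without chromosome 1 or chromosome 2, -0.39 without chromosome 5 and -0.66 against all sequences with at least 100 genes. The difference in the share of expressed genes was -10.0 points at a limit of 0.1 FPKM, -10.6 at 5 FPKM, -10.4 above 0, -6.55 for transcripts of at least 1000 bases, and -2.70 without windows 13 and 14, which was added after the data were seen.

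At a fold of 4, 1.95%, 0.538% and 0% of the Z genes were higher in T4, T5 and T6, and 1.60%, 0% and 0.349% lower. On chromosomes 1, 2, 3 and 5 the shares were 0.927%, 0.383% and 0.19% higher, and 1.85%, 0.359% and 0.761% lower. The excess of higher Z genes was thus small in hen 2 and not seen in hen 3. Shares this low rest on very few Z genes in hens 2 and 3, so the order there is not read as a result. All genes of the table were not counted at this fold. With a pseudocount of 0.1, 5.58% were higher and 5.76% lower in T6, against 2.81% and 5.97%, and with 1, 8.33% were lower in T4, against 9.66%. The median log2 ratio was 0.17 in both hens 1 and 3 at 5 FPKM, 0.059 in hen 3 without a filter, and in hen 2 0.16 with normalized counts and 0.15 with scaling by the median of ratios.

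Pairing by hen bore on the count at an unadjusted p under 0.05: without the replicate block 26 Z genes were higher (4.72%, against 2.45% of all genes) and 3 lower (0.544%, against 1.07%). The lower count was 17 without a filter (2.31%, against 2.51%) and 14 without trend or robust (2.54%, against 2.60%). With 1 hen left out, the Z genes called were 0 to 30 (30 without hen 1, 5.44% against 3.76% of all genes). Those higher at an unadjusted p were 20 (3.63%, against 1.88%) to 64 (11.6%, against 5.52%), and those lower 0 (against 0.808%) to 34 (6.17%, against 7.88%). For the fit without hen 1, 9 Z genes were called without robust and 1 without trend as well (1.63% and 0.181%, against 1.01% and 0.17%), with 26 and 27 lower at an unadjusted p (4.72% and 4.90%, against 6.45% and 6.82%), settings added after the data were seen. With 1 hen left out, the mean log2 ratio was -0.55 to 0.57 for *FST*, the lowest without hen 1 under each setting of eBayes, and -0.29 to 0.89 for *DMRT1*. The other 11 genes tracked kept their sign. Depth was similar in all follicles.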

Other observations

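Among the 36 unannotated Z transcripts, 8 were at 1 FPKM or more in all 6 follicles and 8 in none. In hen 1, 3 of 20 counted were at least 2-fold higher and 5 lower in T4, where all genes of the table had 5.38% and 13.3%. In hen 2 the numbers for T5 were 2 and 1 of 19, where all genes had 1.46% and 3.31%, and in hen 3 those for T6 were 1 and 2 of 16, where all genes had 2.61% and 4.41%. Such small numbers are given as values. The annotated gene18312 (186 bases), singled out after its values were seen, was at 8.41 and 73.6 FPKM in T4 and T5 and listed at 0 in T6, and was listed at 0 in T1 and at 8.08 and 39.7 FPKM in T2 and T3. The short gene19341 (156 bases), singled out likewise, had 157, 1027 and 1950 FPKM in T4, T5 and T6, against 1111, 392 and 746 FPKM in T1, T2 and T3, so that hen 1 went against the other hens.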
